A study of Mus musculus with 6 samples.

Results

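The genes described here are 31 members of the p53 pathway, measured in cultured mouse B cells that received an inhibitor of the transcription factor FOXO1 or its solvent. The members were taken by gene symbol (GENCODE M21) from the deposited count table, which holds 54838 gene identifiers, and all 31 were found and tested. Naive B cells were sorted from the spleens of 10 male mice aged 3 months, in 2 experiments, and were pooled for culture. The animals had received sheep red blood cells as an immunisation 9 days earlier, and no strain was stated. Every culture lasted 5 days and contained 80 ng/ml IL4 and 5 µg/ml anti-CD40, which replace signals that a helper T cell gives. The control group (DMSO, replicates A, B and C) received the solvent from day 3 to day 5, and the treated group (Cpd10, replicates A, B and C) received 1 µM of the compound Cpd10 for the same 48 hours.

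The transcription factor p53 is held at a low level by the ubiquitin ligase MDM2 and its partner MDM4. After DNA damage or other stress it is stabilised and binds paired response elements near its target genes, among them genes that stop the cell cycle (Cdkn1a), repair DNA, trigger cell death, or feed back on p53 itself (Mdm2, Ccng1). Dividing B cells of the germinal centre tolerate DNA breaks in part because BCL6 represses the p53 gene and some of its targets, and FOXO factors are known activators of several genes that p53 also induces.

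The letters that p53 binds stand in front of some of these genes. RefSeq windows (GRCm38.p6, 250 bases before to 50 after a gene's start) were matched for 24 members (30 windows). The other 7 had no window and were not searched: Trp53inp1, Rrm2b, Xpc, Ddb2, Tnfrsf10b, Perp and Zmat3. The p53 full site, a pair of 10-base elements with no gap, was found with at most 1 mismatch in the windows of 2 of 24 member genes, Cdkn1a and Ccng1, and in 29 of 27025 genes in all (0.107%). With at most 2 mismatches it was found in the same 2 member genes (8.33%) and in 254 of 27025 genes in all (0.94%). A single exact copy of the consensus p53 element was found in 10 of 24 member genes (41.7%) against 9.55% of all genes. The element is palindromic, so both strands are read at once. The full sites of Cdkn1a and Ccng1 each contain 1 exact single element, so these 2 genes are also among the 10. The FOXO motif GTAAACA was searched on both strands and was found in 2 of 24 member genes, Mdm2 and Eda2r (8.33%), against 4.05% of all genes. These matches are letters in a window and no measure of binding. The 250 bases before the start are shown for Cdkn1a and Ccng1, which hold a full site, for Mdm2, which holds a single p53 element and a FOXO motif, and for Gadd45a, whose groups did not overlap; all run 5′ to 3′ on the gene's strand, and capitals mark the full site in Cdkn1a and Ccng1, the single p53 element and then the FOXO motif in Mdm2, and the single p53 element in Gadd45a. The positions are chr17:29090729-29090978 (plus strand) for Cdkn1a, chr11:40755287-40755536 (minus) for Ccng1, chr10:117710759-117711008 (minus) for Mdm2 and chr6:67037408-67037657 (minus) for Gadd45a.
Cdkn1a: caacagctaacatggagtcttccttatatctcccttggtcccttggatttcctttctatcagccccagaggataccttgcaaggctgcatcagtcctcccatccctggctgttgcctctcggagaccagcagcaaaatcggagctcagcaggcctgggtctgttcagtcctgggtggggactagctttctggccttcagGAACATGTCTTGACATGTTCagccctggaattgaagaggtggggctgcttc
Ccng1: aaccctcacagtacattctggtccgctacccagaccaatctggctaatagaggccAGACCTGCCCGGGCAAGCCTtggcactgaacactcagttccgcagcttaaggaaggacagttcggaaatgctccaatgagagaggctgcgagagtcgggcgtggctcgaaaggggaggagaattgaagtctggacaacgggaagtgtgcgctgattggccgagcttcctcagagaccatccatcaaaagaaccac
Mdm2: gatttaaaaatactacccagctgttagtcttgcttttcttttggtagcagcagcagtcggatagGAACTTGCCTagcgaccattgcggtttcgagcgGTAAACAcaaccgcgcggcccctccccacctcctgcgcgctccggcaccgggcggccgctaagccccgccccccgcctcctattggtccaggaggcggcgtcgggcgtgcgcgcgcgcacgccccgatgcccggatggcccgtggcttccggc
Gadd45a: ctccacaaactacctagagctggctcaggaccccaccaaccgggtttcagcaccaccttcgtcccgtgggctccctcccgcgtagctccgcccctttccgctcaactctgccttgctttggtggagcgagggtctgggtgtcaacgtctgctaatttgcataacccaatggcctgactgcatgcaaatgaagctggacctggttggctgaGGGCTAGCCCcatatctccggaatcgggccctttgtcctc

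Libraries held 36873204 to 44859930 counts, so for most members (counts scaled by normalised library size, in CPM units as edgeR gives them) the spread between libraries, not counting error, limits precision. What the replicate letters stand for is not in the labels. The p-values below therefore reflect library-to-library spread alone, and that spread may be technical. The libraries form 2 sets that cross the treatment and are not in the labels: set 1 is DMSO A, DMSO C and Cpd10 A, while set 2 is Cpd10 B, Cpd10 C and DMSO B. The split was taken from 9 genes, none of them a member, that had at most 3 counts in each library of one side and at least 50 in each of the other. Transcripts of 79 ribosomal protein genes took 6.03% to 6.48% of counts in set 1 and 9.79% to 10.9% in set 2; their part in the results below was not tested. B cell markers were all expressed (summed level 10658 to 22995 CPM in DMSO, 11233 to 16364 CPM in Cpd10). The summed markers of other cells were low in DMSO and in Cpd10: T cells at 1.16 to 2.12 and 0.595 to 1.70 CPM, macrophages and dendritic cells at 16.8 to 28.4 and 10.1 to 19.6, NK cells at 3.69 to 10.0 and 2.08 to 6.41, fibroblasts and endothelium at 11.3 to 20.5 and 4.93 to 6.14, and erythroid cells at 0 to 0.551 and 2.25 to 3.09. The last 2 ranges did not overlap between the groups. Neutrophil markers did not exceed 0.706 CPM, and S100a8, S100a9, Ncr1 and Hba-a1 were at 0 in all 6 libraries. Their part in the results was not tested.

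No p53 pathway gene passed the test between Cpd10 and DMSO. By edgeR's quasi-likelihood test, 0 of 31 members rose and 0 fell at an adjusted p under 0.05, where 0.370% of the 15136 tested genes were called (0.317% higher, 0.0529% lower). At an unadjusted p under 0.05 there were 4 members, 1 higher (Ptpn14) and 3 lower (Trp53inp1, Gadd45a and Rrm2b), or 12.9%, beside 8.39% of all genes (3.86% higher, 4.53% lower). Limma-voom called 0 of 31 (0.330% of all genes, 0.291% higher and 0.0396% lower). DESeq2 called 1, Trp53inp1, lower (2.00% of all genes, 1.15% higher and 0.849% lower). The median log2 fold change of the members was -0.0014, beside -0.0012 for all tested genes, with 15 members above 0 and 16 below. That median depended on single libraries: it was 0.17 without DMSO B, 0.16 without Cpd10 A, -0.18 without DMSO C, -0.12 without Cpd10 B and -0.09 without Cpd10 C. In simulated data of the same size, this edgeR fit called 8% of the genes given a 1.5-fold change. The share was 47.6% at 2-fold and 89.2% at 4-fold, so small differences would mostly be missed.

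Many members instead varied together across libraries. In 18 of 31 members (58.1%) the 3 libraries of set 2 all lay above the 3 of set 1, beside 18.8% of all tested genes; in 1 member, Ddb2, they all lay below (3.23%, beside 17.1%). The highest library was at least 2 times the lowest in 12 of 31 members (38.7%, beside 39.8% of all genes). DMSO B held the highest value of 17 members and Cpd10 A the lowest of 15. In bulk RNA, fewer cells with a transcript and less of it per cell cannot be told apart. The sets were found in the same counts, so these shares are a description without a test.

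**Figure D1:**
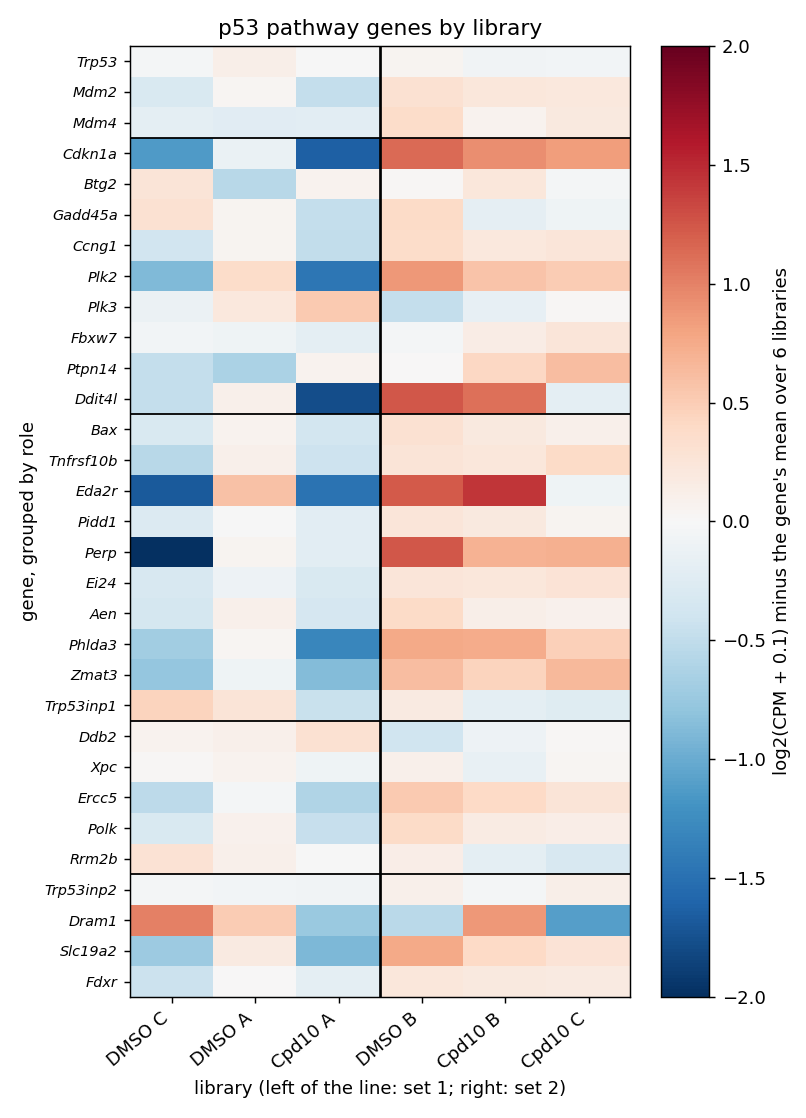
Level of each of the 31 genes (rows, grouped by role in the order of the text) in each of the 6 libraries (columns), as log2(CPM + 0.1) minus the gene's mean over the libraries; colours stop at 2 units. The 3 libraries of set 2, at the right, were above the 3 of set 1 in 18 genes, while Trp53 itself was nearly even.

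The p53 gene itself was among the steadiest members. Trp53 (chromosome 11, 69580359 to 69591873, ENSMUSG00000059552) stood at 170, 163 and 153 CPM in DMSO A, B and C and at 156, 150 and 150 CPM in Cpd10 A, B and C. The groups overlapped and the whole range spanned 1.13-fold. Its log2 fold change was -0.09 (SE 0.085, edgeR adjusted p = 0.865). Mdm2 (chromosome 10, 117688875 to 117710758, ENSMUSG00000020184), the ligase that is both inhibitor and target of p53, was at 180, 214 and 141 CPM in DMSO and 125, 204 and 202 CPM in Cpd10. The groups overlapped throughout, and the 3 highest values were those of set 2 (log2 fold change -0.01, SE 0.23, edgeR adjusted p = 0.996). Mdm4, which blocks p53's activation domain, was at 452, 683 and 460 CPM in DMSO and 457, 558 and 605 CPM in Cpd10. Its 3 set 1 values lay close together, below all of set 2 (0.02, SE 0.19, edgeR adjusted p = 0.986).

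Cdkn1a encodes p21, the inhibitor of cyclin-dependent kinases through which p53 halts the cell cycle, and it showed the widest spread among members above 10 CPM. Like Gadd45a and Trp53inp1, described below, Cdkn1a is also a known target of FOXO factors. Cdkn1a (chromosome 17, 29090976 to 29100727, ENSMUSG00000023067) stood at 159, 382 and 79.3 CPM in DMSO and at 56.2, 332 and 312 CPM in Cpd10, a 6.79-fold range. Both groups held low and high libraries, so the group means of 207 ± 157 and 233 ± 154 CPM (SD, n = 3) were far closer than the libraries within a group (log2 fold change 0.17, SE 0.84, edgeR adjusted p = 0.975). Within set 1, Cpd10 A was below DMSO A and DMSO C, and within set 2, Cpd10 B and C were below DMSO B. Ccng1 (chromosome 11, 40748552 to 40755311, ENSMUSG00000020326), cyclin G1, which feeds back on MDM2, also had Cpd10 below DMSO within each set, at 500, 620 and 368 CPM in DMSO and 342, 553 and 571 CPM in Cpd10. In both genes that hold a full p53 site in the sequences above, the libraries were ordered by set, and the treatment groups overlapped (Ccng1 log2 fold change -0.02, SE 0.25, edgeR adjusted p = 0.990).

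Plk2, a polo-like kinase induced by stress, was at 37.3, 52.6 and 15.6 CPM in DMSO and 10.5, 42.6 and 41.1 CPM in Cpd10. It spread 4.99-fold with the same 3 libraries on top. Its relative Plk3 did not share this, at 26.3, 16.4 and 20.9 CPM in DMSO and 32.8, 20.3 and 23.2 CPM in Cpd10, with the groups overlapping. Within each set, Plk3 was higher in Cpd10 than in DMSO. Fbxw7, which marks cyclin E and MYC for degradation, was higher in set 2 by a small margin, at 339, 353 and 348 CPM in DMSO and 313, 398 and 424 CPM in Cpd10. Btg2, an antiproliferative gene, ranged from 95.4 CPM (DMSO A) to 168 CPM (DMSO C) in no order of set or treatment. The mTORC1 inhibitor gene Ddit4l was low, at 10 to 90 counts per library, and ranged from 0.220 to 2.48 CPM.

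Among the cell cycle genes, the groups did not overlap for Gadd45a and Ptpn14. Gadd45a (chromosome 6, 67035096 to 67037457, ENSMUSG00000036390), a growth arrest gene that both p53 and FOXO factors are known to induce, was at 10.2, 12.8 and 12.0 CPM in DMSO and at 6.94, 8.57 and 9.15 CPM in Cpd10. All 3 treated libraries were lower (log2 fold change -0.51, SE 0.19, edgeR unadjusted p = 0.0292, adjusted p = 0.517). An opposite-strand transcript shares 19.1% of the Gadd45a exon length and had 126 counts over all libraries against 2411 for Gadd45a. Strand use in the counting is not given, and the part of this overlap in the Gadd45a values was not tested. Ptpn14, a phosphatase that restrains YAP, was at 3.74, 5.92 and 4.21 CPM in DMSO and at 6.17, 7.89 and 9.02 CPM in Cpd10. All treated libraries were higher (0.74, SE 0.27, edgeR unadjusted p = 0.0255, adjusted p = 0.498). Over all tested genes, 7.31% had all 3 Cpd10 libraries above all 3 of DMSO and 7.32% had them below; of the 31 members these were 1 (3.23%) and 3 (9.68%).

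Trp53inp1 was the member with the smallest p. It encodes a stress-induced nuclear protein that promotes p53 phosphorylation and autophagy, and is a known target of p53 and of FOXO3. Trp53inp1 (chromosome 4, 11156431 to 11174379, ENSMUSG00000028211) stood at 207, 196 and 236 CPM in DMSO and at 127, 151 and 147 CPM in Cpd10. All 3 treated libraries were lower, within set 1 and within set 2, and neither set was above the other. Group means were 213 ± 20.8 and 142 ± 12.6 CPM (SD, n = 3), a ratio of 0.665. The log2 fold change was -0.59 (SE 0.11), with an edgeR adjusted p of 0.110 that missed the threshold. It passed by DESeq2 (adjusted p = 0.00904). It also passed in edgeR once library set was a model term (adjusted p = 0.00558), where it was the single member called (1 of 31, lower, beside 3.96% of all genes, 2.32% higher and 1.64% lower). Without Cpd10 A that second call was lost (edgeR adjusted p = 0.267). In that fit set 1 holds DMSO alone, so the estimate rests on set 2, with DMSO B as its only control. Its paralogue Trp53inp2, an autophagy gene, was level across libraries, from 26.3 to 30.1 CPM (log2 fold change -0.0014, SE 0.12, edgeR adjusted p = 0.998).

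**Figure D2:**
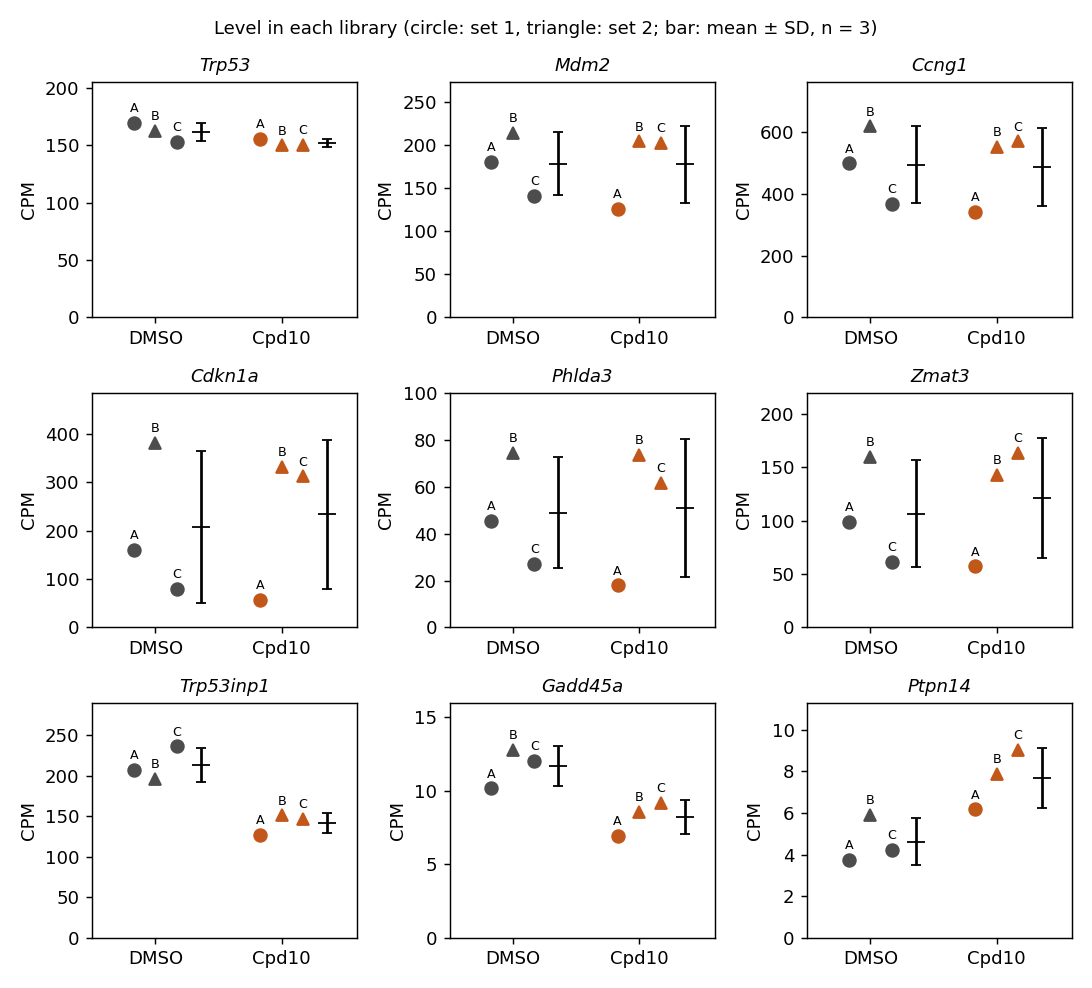
CPM of 9 genes in each library (points, lettered by replicate; circles are set 1, triangles set 2), with the group mean ± SD (n = 3) beside them; axes start at 0. Mdm2, Ccng1, Cdkn1a, Phlda3 and Zmat3 separate by set within each group, Trp53inp1 and Gadd45a are lower and Ptpn14 higher in all 3 Cpd10 libraries, and Trp53 is nearly even.

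Most death genes were higher in set 2, 7 of 10 with all its libraries above set 1 (70%, beside 18.8% of all genes). Bax, whose product permeabilises mitochondria, was at 97.8, 115 and 75.6 CPM in DMSO and 71.9, 106 and 99.7 CPM in Cpd10. Phlda3, which restrains AKT at the membrane, was at 45.3, 74.5 and 27.2 CPM in DMSO and 17.9, 73.7 and 61.6 CPM in Cpd10, a 4.17-fold range. Zmat3, an RNA-binding protein gene, was at 98.8, 160 and 61.2 CPM in DMSO and 57.2, 143 and 163 CPM in Cpd10. In each of these genes the 3 set 2 libraries were highest and the groups overlapped. The 3 death genes without that separation were Trp53inp1, Aen (a nuclease) and Eda2r (a TNF receptor family member). Aen missed it only because DMSO A, at 64.8 CPM, was above Cpd10 C, at 64.2 CPM. Tnfrsf10b (the TRAIL receptor), Pidd1 (a scaffold that activates caspase 2) and Ei24 had log2 fold changes between treatments of 0.13, 0.03 and 0.13 (SE 0.26, 0.16 and 0.20). Perp and Eda2r were low, with ranges of 0.341 to 5.78 CPM and 0.292 to 3.30 CPM.

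Repair genes were mixed. Ercc5, an endonuclease of nucleotide excision repair, was at 37.6, 55.4 and 26.9 CPM in DMSO and 25.3, 50.7 and 45.9 CPM in Cpd10, and Polk, a translesion polymerase, was at 41.7, 51.3 and 31.9 CPM in DMSO and 28.4, 44.2 and 43.0 CPM in Cpd10. Both were highest in the set 2 libraries. The damage sensors Xpc and Ddb2 differed from them. Xpc stayed between 18.0 and 21.2 CPM, and Ddb2 between 13.1 and 21.5 CPM with set 2 lower; 23.8% of the Ddb2 exon length overlaps Acp2 on the opposite strand, which had 1660 counts over all libraries against 4325 for Ddb2. Without known strand use in the counting, reads of this pair cannot be told apart over the shared exon bases. Rrm2b, the p53-induced subunit of ribonucleotide reductase, was at 20.8, 21.3 and 23.8 CPM in DMSO and at 19.4, 17.0 and 15.5 CPM in Cpd10. All treated libraries were lower, by little (log2 fold change -0.34, SE 0.14, edgeR unadjusted p = 0.0392, adjusted p = 0.562).

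Among transport and metabolic genes, Slc19a2, a thiamine transporter, was at 45.6, 24.2 and 21.5 CPM in DMSO A, DMSO C and Cpd10 A and at 48.7 to 68.0 CPM in set 2. Fdxr, ferredoxin reductase, ranged from 18.7 to 29.6 CPM, also with all set 2 libraries above set 1. Dram1, a lysosomal autophagy gene, was close to the detection limit, at 3 to 28 counts per library. Per exon length (RPKM, CPM per kilobase of exons), the highest mean over the 6 libraries was that of Ccng1 at 140, then Cdkn1a at 61.9, Bax at 59.8, Btg2 at 52.0 and Fbxw7 at 51.4. Cdkn1a's level ranged so widely between libraries that its place among these neighbours is not fixed. Trp53 was at 38.8, Mdm4 at 36.2 and Mdm2 at 34.9 RPKM, and the lowest were Ddit4l at 0.431, Eda2r at 0.274 and Dram1 at 0.116.

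Fitted differences of the members moved downward once library set was added to the edgeR model. Set 2 holds Cpd10 B, Cpd10 C and DMSO B, and 18 of 31 members were higher in all of it. For such genes the set term moves the fitted difference downward, and for genes lower in set 2 upward. The shift alone therefore restates the order of the sets. In that edgeR fit 26 of 31 members had a log2 fold change below 0 (83.9%, beside 52.0% of all tested genes), and their median was -0.22, beside -0.01 for all genes. Of 28 tested p53 targets outside the members, described below, 15 were below 0 in the same fit (53.6%), with a median of -0.12. Among the members, the values were -0.66 (SE 0.41) for Cdkn1a, -0.57 (SE 0.34) for Phlda3, -0.56 (SE 0.27) for Slc19a2, -0.24 (SE 0.12) for Ccng1 and -0.22 (SE 0.11) for Mdm2. None of these passed (edgeR adjusted p = 0.566, 0.537, 0.433, 0.350 and 0.366). The 5 members above 0 in this fit were Ptpn14 (0.57), Plk3 (0.44), Ddb2 (0.29), Btg2 (0.12) and Fbxw7 (0.04). After Trp53inp1, the smallest edgeR adjusted p were 0.0851 for Gadd45a (log2 fold change -0.60), 0.0911 for Plk3 and 0.176 for Ptpn14, and none passed. Read library by library, Cpd10 was below DMSO within set 1 in 18 of 31 members and above in 3 (35.3% and 35.6% of all genes), and within set 2 below in 20 and above in 4 (38.9% and 34.7%). It was below DMSO within both sets in 14 of 31 members (45.2%), beside 18.5% of all genes, and above it within both in 3 (9.68%, beside 18.0%). Set 1 holds a single Cpd10 library and set 2 a single DMSO library, and these held the lowest value in 15 members and the highest in 17, so each within-set comparison rests on 1 library on one side. The set was picked from the same counts, which makes this fit exploratory.

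**Figure D3:**
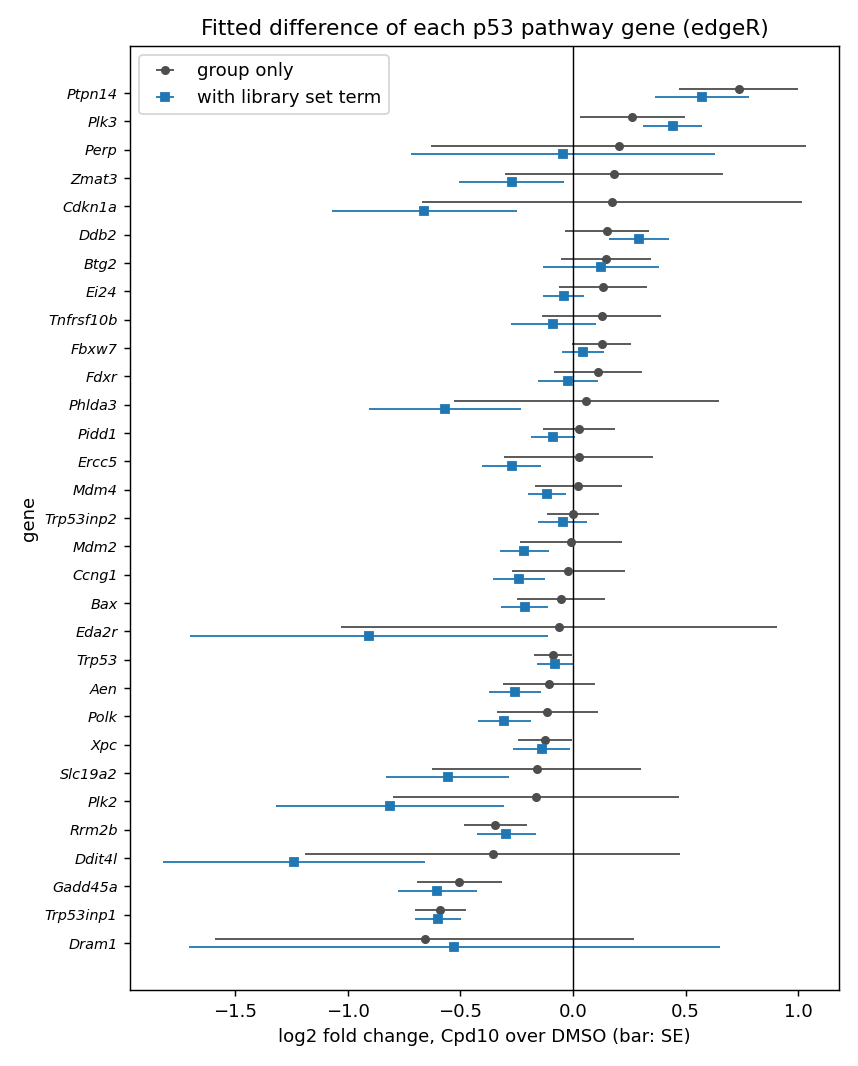
Log2 fold change of Cpd10 over DMSO with its SE for the 31 genes, from edgeR with the treatment alone (circles) and with the library set as a term (squares). Most squares lie left of their circles, with 26 below 0; Trp53inp1 is at -0.59 and -0.60 and has short bars in both.

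The wider pathway was read from 3 lists that hold no member; Ppm1d is on both the regulator and the other-target list. Of 31 regulators of p53, 0 rose and 0 fell by edgeR, and 1 had an unadjusted p under 0.05 (3.23%, beside 8.39% of all genes; DESeq2 and limma-voom called 0). That gene was Ppm1d, a phosphatase that switches p53 signalling off and is itself a p53 target. Ppm1d was at 35.1, 37.1 and 24.8 CPM in DMSO and 21.1, 24.2 and 25.0 CPM in Cpd10, with an overlap of DMSO C and Cpd10 C (log2 fold change -0.47, SE 0.17, edgeR adjusted p = 0.510; set term 0.0433). The damage kinase gene Atr, the p53 cofactor gene Ppp1r13b and the ligase gene Trim24 came next, at -0.30, -0.20 and -0.24 (edgeR adjusted p = 0.619, 0.736 and 0.747). Under the set term 3 regulators were called, 1 higher and 2 lower (beside 2.32% and 1.64% of all genes): Ppm1d, Cdkn2a (-1.08, the locus of the MDM2 inhibitor ARF) lower and H2afx (0.51, the damage-marked histone) higher, with edgeR adjusted p of 0.0280 and 0.00251 for the last 2. The median of the list was -0.04.

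Of 33 other p53 targets, 28 were tested and 0 passed by edgeR; 3 had an unadjusted p under 0.05 (10.7%, beside 8.39% of all genes). DESeq2 called 1 (beside 2.00% of all genes) and limma-voom 0. The set term called 1 higher and 1 lower (beside 2.32% and 1.64%). Pmaip1 (NOXA, a BH3-only death gene) was at 111, 55.7 and 59.4 CPM in DMSO and 38.2, 40.6 and 43.4 CPM in Cpd10. All treated libraries were lower, with DMSO A far above the rest (log2 fold change -0.89, SE 0.26, edgeR adjusted p = 0.361, DESeq2 adjusted p = 0.0293). Bbc3 (PUMA, which p53 and FOXO3 are both known to induce) was at 59.0, 69.1 and 45.0 CPM in DMSO and 18.5, 47.4 and 40.3 CPM in Cpd10. The groups overlapped at DMSO C and Cpd10 B (-0.71, SE 0.34, edgeR adjusted p = 0.678; set term 0.0767). Trp53i11 was at 354, 313 and 365 CPM in DMSO and 434, 392 and 404 CPM in Cpd10, higher in all treated libraries (0.25, SE 0.11, edgeR adjusted p = 0.581; set term 0.0433). The list's median was 0.05, with 20 of 28 above 0 and 8 below. With the set term the median was -0.12, with 13 above 0 and 15 below.

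Of 15 genes that p21 is known to silence through the DREAM complex, 0 passed by edgeR, DESeq2 or limma-voom, and 1 had an unadjusted p under 0.05 (6.67%, beside 8.39% of all genes). That was Aurka, a mitotic kinase, at 46.9, 47.5 and 45.5 CPM in DMSO and 64.3, 59.3 and 54.7 CPM in Cpd10 (log2 fold change 0.35, SE 0.10, edgeR adjusted p = 0.325). The fitted difference was above 0 in 14 of 15, beside 7542 of 15136 tested genes, with a median of 0.25. With the set term the median was 0.36 and 7 of 15 were called higher (beside 2.32% of all genes), among them Aurka, Cdk1, Rrm2 and Ccnb1 (edgeR adjusted p = 0.0433, 0.0289, 0.00197 and 0.0393). Within both sets Cpd10 was above DMSO in 13 of 15 (86.7%, beside 18.0% of all genes). Each within-set comparison rests on 1 library on one side, and the set was picked from the same counts. Without regard to set, all 3 Cpd10 libraries lay above all 3 of DMSO in 3 of 15 and below in 0 (20% and 0%, beside 7.31% and 7.32% of all genes). Across sets, 5 of 15 were lower in all of set 2 and 0 higher (33.3% and 0%, beside 17.1% and 18.8%). For genes lower in set 2 the set term moves the fitted difference upward, so the rise in the median partly restates the order of the sets. Foxo1 itself, whose protein the compound is labelled to inhibit, was at 137, 122 and 155 CPM in DMSO and 130, 115 and 111 CPM in Cpd10 (-0.22, SE 0.12, edgeR adjusted p = 0.711); its transcript does not report on inhibition of the protein.

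**Figure D4:**
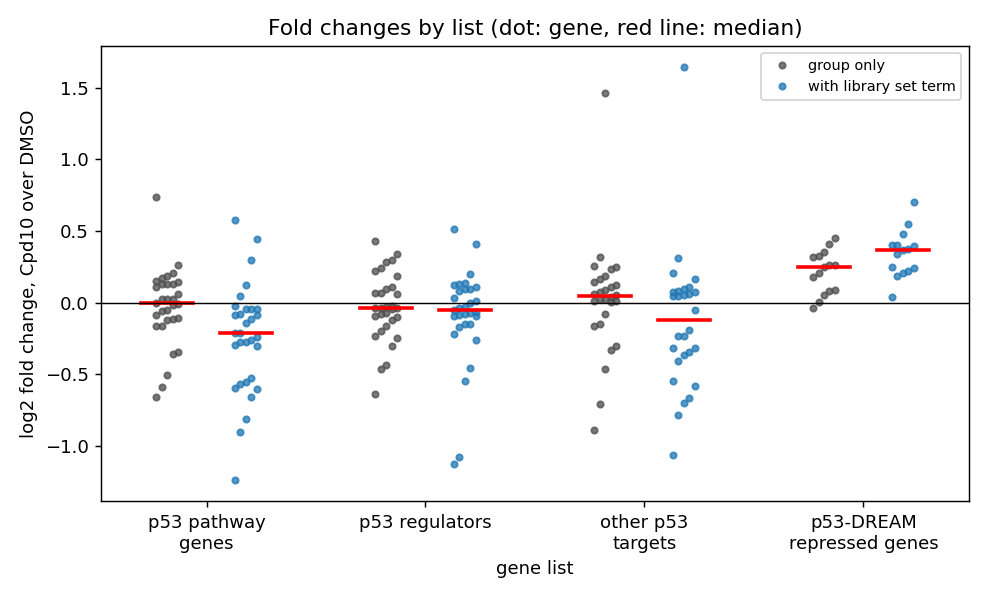
Log2 fold change of Cpd10 over DMSO for the tested genes of 4 lists (dots; red line, median), without and with the library set as a term in edgeR. The members' median moves from -0.0014 to -0.22 and that of the DREAM-repressed genes from 0.25 to 0.36.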

How the data were processed

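The deposited table gives whole-number read counts per Ensembl gene, not normalised, for 6 libraries (3 DMSO, 3 Cpd10). Per the submitters' processing notes the authors used STAR 2.7.10a, featureCounts 2.0.6 and DESeq2 with GRCm38 (mm10); the annotation release and strand setting are not given in the sources used here. Symbols came from GENCODE M21 (54809 of 54838 identifiers matched).

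Counts were tested with edgeR 4.0.16 in R 4.3.3 (TMM, filterByExpr, robust quasi-likelihood fit, group as the only term), with Benjamini-Hochberg adjustment over all 15136 tested genes and calls at an adjusted p under 0.05. SE was taken as log2 fold change over root F. Alternatives were DESeq2 1.42.0, limma-voom 3.58.1, RLE and upper quartile scaling, no filter, the replicate letter as a block, the library set as a term, and leaving out each library. The fit was tested on simulated data (5 simulations). The members and lists were chosen with earlier results of these data known. Text names all 31 members, Foxo1, and up to 4 genes with the smallest p of each other list; genes called with the set term alone were named after their values were seen.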

Additional observations from a re-analysis of the deposited data

How the results depend on the processing

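Over all genes, the edgeR count of 56 calls was 356 by DESeq2, 194 without the filter and 599 with the library set term, and ran from 0 (without Cpd10 C, with 843 genes at an unadjusted p under 0.05) to 100 (without DMSO B) when a library was left out; it was 5 without DMSO A, and 1 without DMSO C or without Cpd10 B. The member count of 0 became 1 (Trp53inp1) by DESeq2, without the filter and with the set term, and stayed 0 in the 6 fits with a library left out, where Trp53inp1 had log2 fold changes of -0.65 to -0.51. With the set term and a library left out, a setting added after seeing the data, it was called in 5 of 6 fits, and lost without Cpd10 A. These 6 fits are not alike. Without Cpd10 A, set 1 holds DMSO alone, and the estimate (-0.38) rests on set 2, with DMSO B as its only control. Without DMSO B, set 2 holds Cpd10 alone, and the estimate (-0.80) rests on set 1, with Cpd10 A as its only treated library. The set term called 3 regulators, 2 other p53 targets and 7 DREAM-repressed genes, and DESeq2 1 other p53 target, against 0 in each. Fitted signs are not stable near 0: 21 members changed sign in at least 1 alternative (63 changes in all), of which 1 exceeded the SE, Phlda3 at -0.57 with the set term. The cause was not tested. As a replicate block, the letters gave 49 calls over all genes and 0 members. Whether the letters pair the libraries cannot be told from these counts. Deviations from the group means correlated at r = 0.31 for A with A, 0.43 for B with B and -0.31 for C with C. These are correlations across genes, which are not independent replicates, and DMSO C and Cpd10 C lie in different library sets. Not every library correlated best with its own letter. Depth limits Dram1, with 3 to 28 counts per library; Eda2r (12 to 130 counts) and Ddit4l (10 to 90) varied between libraries by more than counting error.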

Other observations

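Among p53 targets outside the 31 members, 9 of the 28 tested had all 3 libraries of set 2 above all 3 of set 1 (32.1%, beside 18.8% of all tested genes); the genes named in this paragraph were chosen after their values were seen. Psrc1, a spindle protein gene, was at 110, 206 and 69.6 CPM in DMSO A, B and C and at 59.2, 208 and 191 CPM in Cpd10 A, B and C. Pmm1, phosphomannomutase 1, was at 39.1, 92.5 and 32.6 CPM in DMSO and 30.9, 76.3 and 79.4 CPM in Cpd10. In these genes, as in Cdkn1a, DMSO B lay with Cpd10 B and C, and Cpd10 A lay lowest. Pml, another p53 target, was ordered the other way, at 253, 207 and 334 CPM in DMSO and 365, 212 and 229 CPM in Cpd10. Bcl6, the repressor of Trp53 in germinal centre B cells, was at 40.4, 60.9 and 36.2 CPM in DMSO and at 29.9, 62.5 and 63.8 CPM in Cpd10, with the 3 set 2 libraries highest. Of the 31 p53 regulators, the list that holds Bcl6, 6 were higher and 6 lower in all of set 2 (19.4% each, beside 18.8% and 17.1% of all genes). The 6 lower ones were Atm, Chek1, Mdc1, Trim24, Ep300 and Sirt1.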
